A study of Mus musculus with 8 samples.

Results

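The p53 pathway was described here by 10 genes, which are Trp53 itself, its negative regulators Mdm2 and Mdm4, and 7 genes that p53 switches on, namely Cdkn1a, Ccng1, Zmat3, Trp53inp1, Phlda3, Aen and Sesn1. The members were all probes on the arrays, other than control spots, whose transcript accession belongs to one of these genes. This rule found 14 probes of 39429, and the 10 genes are among 21612 genes that could be named on the array. A single probe was found for 6 genes, and the other 4 (Mdm4, Cdkn1a, Trp53inp1 and Aen) had 2 probes each. In the study, AML12 cells, a mouse hepatocyte line, were grown in DMEM F-12 medium with 10% fetal bovine serum and kept for 24 h either without irisin (control, 4 arrays) or with 0.5 µg/ml irisin (4 arrays). Irisin is a secreted peptide released from the membrane protein FNDC5. The line was established from mice that carry a transgene for human TGF-α, which both groups share, and no knockout or other agent was used. The labels number the samples but do not say whether they came from separate cultures, so the p-values measure the spread between these samples, which may be technical.

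p53 is a transcription factor that is held at a low level in unstressed cells because MDM2 ubiquitinates it and MDM4 covers its activation domain. When DNA damage or other stress frees it, p53 activates genes of cell-cycle arrest, repair, cell death and metabolism, and it activates Mdm2, which closes a feedback loop. p53 is controlled largely at the level of protein stability, and messenger RNA arrays measure neither that protein nor its modification. In the liver, p53 restrains proliferation of damaged hepatocytes and is often mutated in hepatocellular carcinoma.

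All 12 hepatocyte markers were well above background on all 8 arrays, and their summed signal, in log2 with the array's 75th percentile set to 0, ran from 8.86 to 9.01 without and from 8.56 to 8.79 with irisin. Of these markers only Tat, tyrosine aminotransferase, passed the test, and it fell by 0.77 on the log2 scale. Among the markers of other liver cells, Pecam1 of the endothelium fell by 0.61. The Tat and Pecam1 probes were dim. Their mean background-subtracted signal was 31.0 without and 30.1 with irisin for Tat, and 21.6 and 23.5 for Pecam1. Both falls are relative to the array's 75th percentile. Of markers of other liver cells, 2 of 5 for macrophages, 2 of 4 for endothelium, 1 of 4 for stellate cells and 3 of 4 for cholangiocytes were well above background on all arrays. Cdh5, Tek, Des, Lrat and Pdgfrb failed that mark on all 8 arrays, while Cd68, Csf1r, Pecam1, Kdr, Col1a1, Krt19, Krt7 and Sox9 met it on all. The summed signal of the macrophage markers ran from -0.90 to -0.66 without and from -1.13 to -0.89 with irisin. That of the endothelial markers ran from -0.52 to -0.36 without and from -1.29 to -0.79 with irisin. The stellate sums were -4.98 to -4.61 and -5.07 to -4.75, and the cholangiocyte sums 5.41 to 5.65 and 5.36 to 5.58, in the same order. Their part in the results was not tested. The 75th percentile of the signal was 371.7 to 534.1 on the control and 681.8 to 850.4 on the irisin arrays. All control arrays were on 1 slide and in 1 scan and all irisin arrays on another, so in every value given here the treatment cannot be told apart from the slide or the scan.

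Trp53 was the only one of the 10 genes that passed the test. Its signal, given throughout in log2 with the 75th percentile of the same array as 0, was -1.10, -1.04, -0.95 and -0.64 on control arrays 1 to 4. It was -0.71, -0.048, -0.048 and -0.21 on irisin arrays 1 to 4. Irisin arrays 2, 3 and 4 were above every control array, whereas irisin array 1 was just under control array 4, so the groups overlapped. The means were -0.93 ± 0.20 and -0.25 ± 0.31 (SD, n = 4 each). Trp53 therefore rose by 0.68 on the log2 scale, which is 1.60-fold (SE 0.16, 95% interval 0.33 to 1.03, limma adjusted p = 0.00915). The exact two-sided permutation test on these 8 values gave p = 0.0571, where 0.0286 is the smallest p that 4 against 4 arrays allow. The call held without any 1 array, with a change of 0.61 to 0.83 and an adjusted p of 0.00121 to 0.0315. It was lost with the methods' t-test on the same values, where the adjusted p was 0.0509. Over all 24092 probes tested, 0.714% were called higher and 11.7% lower with irisin, a call being a change of at least 1.5-fold with an adjusted p under 0.05. These are 172 and 2815 probes, and the balance moved with the processing, to 699 higher and 926 lower after cyclic loess, 670 and 1021 after quantile normalization, 55 and 103 after normexp background correction, 7510 and 372 with scaling to spike-in probes and 14920 and 162 with no scaling. By the brightest probe of each gene, 0.531% of 14311 genes were called higher, beside 1 of the 10 p53 pathway genes, and 10.2% were called lower, beside 0 of the 10 (limma). At an unadjusted p under 0.05, also 1 of the 10 was higher and 0 were lower, against 5.94% and 23.6% of all tested genes.

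**Figure D1:**
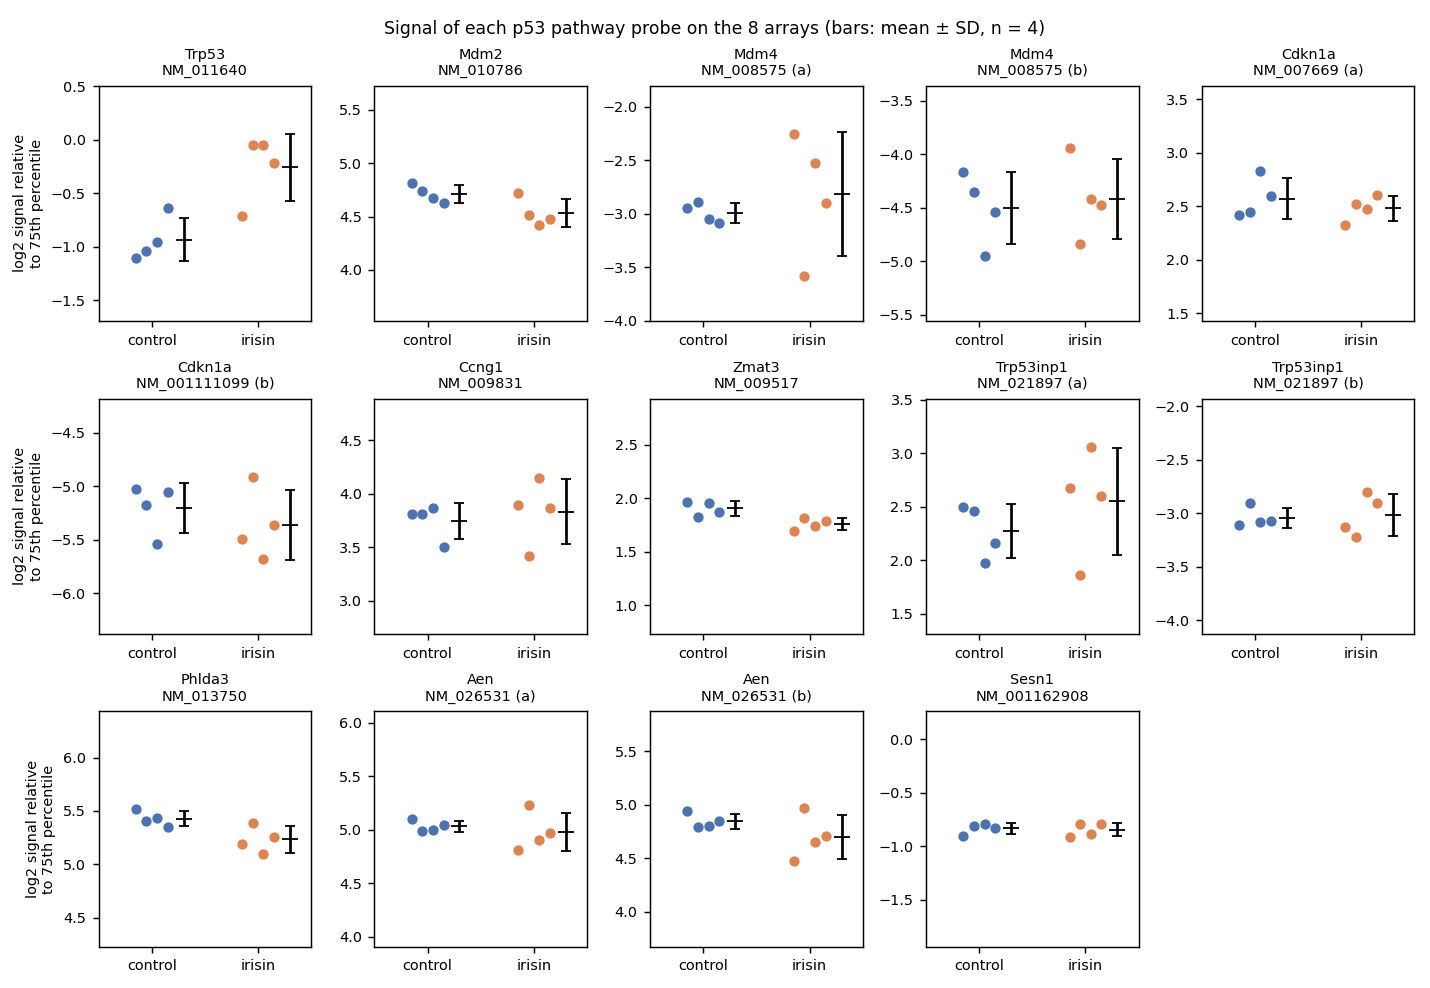
Each panel shows 1 probe, with the log2 signal on the vertical axis, 0 being the array's 75th percentile (all panels span the same range), the 4 control arrays in blue and the 4 irisin arrays in orange in order of replicate number, and the mean ± SD as black bars. Trp53 is shifted upward from -0.93 to -0.25, while Mdm4, Ccng1 and Trp53inp1 mainly show a wider spread of the irisin arrays.

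The p53 protein binds a motif made of repeated decamers, and several of the genes carry such a decamer in the bases before a transcription start. RefSeq promoter windows of GRCm38.p6, 250 bases before to 50 after each annotated start, were found for 8 of the 10 genes, 12 windows in all, and none was found for Zmat3 and Trp53inp1. The decamer is its own reverse complement, so that 1 search covered both strands. It was present in 7 of the 12 windows, from 6 of the 8 genes, and in 8.36% of all 32851 windows. The 250 bases before the start, in the direction of transcription, are shown for Trp53, the gene that rose, and for the 2 best known targets, Mdm2 and Cdkn1a, with each decamer in capitals.
Trp53, chr11:69580109-69580358, plus strand: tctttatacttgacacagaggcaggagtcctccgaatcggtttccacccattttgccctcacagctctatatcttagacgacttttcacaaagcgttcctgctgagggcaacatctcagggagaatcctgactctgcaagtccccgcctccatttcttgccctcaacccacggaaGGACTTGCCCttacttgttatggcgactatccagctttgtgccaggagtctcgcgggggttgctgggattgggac
Mdm2, chr10:117710759-117711008, minus strand: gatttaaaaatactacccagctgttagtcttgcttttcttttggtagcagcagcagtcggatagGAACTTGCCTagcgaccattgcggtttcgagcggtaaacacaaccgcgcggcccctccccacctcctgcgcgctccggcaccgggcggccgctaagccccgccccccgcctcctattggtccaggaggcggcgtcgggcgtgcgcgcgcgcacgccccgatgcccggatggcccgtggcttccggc
Cdkn1a, chr17:29090729-29090978, plus strand: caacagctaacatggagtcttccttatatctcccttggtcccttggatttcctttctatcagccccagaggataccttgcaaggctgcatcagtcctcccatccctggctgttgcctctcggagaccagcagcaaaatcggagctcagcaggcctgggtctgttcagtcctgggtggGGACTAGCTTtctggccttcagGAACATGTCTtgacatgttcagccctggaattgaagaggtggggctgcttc
The decamer began 75 bases before the Trp53 start, 186 bases before the Mdm2 start, and 73 and 51 bases before 1 of the 2 Cdkn1a starts. Ccng1 held GGGCAAGCCT 185 bases before its start, Aen GGGCTTGTCC 121 bases before 1 of its 2 starts, and Sesn1 AAGCTTGTTT 173 bases before 1 of its 2 starts. The Aen decamer also lies 11 bases after the other Aen start, since the 2 Aen windows overlap, so this site was counted in both windows. The windows of Mdm4 and Phlda3 held none. The E-box CACGTG, which is also its own reverse complement and overlapped none of the decamers, was in the Trp53 window 11 bases after the start and in 1 Aen window 79 bases before it, and in 7.15% of all windows. These matches describe the letters of these windows and are neither sites of binding nor causes, and the changes of the genes that hold a decamer ranged from the rise of Trp53 to the values of Mdm2 and Cdkn1a below, which did not pass the test.

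The regulators of p53 among the 10 genes did not pass the test. Mdm2, the ubiquitin ligase of p53 and itself a p53 target, had a signal of 4.82, 4.74, 4.67 and 4.62 on control arrays 1 to 4 and of 4.72, 4.51, 4.42 and 4.48 on the irisin arrays. Irisin arrays 2, 3 and 4 lay under all control arrays and irisin array 1 among them. The difference was -0.18 (SE 0.091, 95% interval -0.38 to 0.022, adjusted p = 0.197, limma), opposite in sign to that of Trp53. The interval does not reach a 1.5-fold change, which is 0.58 on the log2 scale, in either direction. Mdm4, the relative of MDM2 that inhibits p53 without strong ligase activity of its own, had a brighter probe at -2.94, -2.89, -3.05 and -3.09 on the control arrays and at -2.26, -3.59, -2.53 and -2.90 on the irisin arrays. Its control values stayed within a narrow band with an SD of 0.092, while the irisin values spread above and below them with an SD of 0.58. The difference of 0.18 (SE 0.23, 95% interval -0.34 to 0.69, adjusted p = 0.662) was therefore poorly resolved, and it was -0.011 without irisin array 1 and 0.43 without irisin array 2, where the adjusted p was 0.0432 with the fold under 1.5. The second Mdm4 probe gave 0.083 (SE 0.20, adjusted p = 0.826), with overlapping groups.

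The targets that act on the cell cycle also did not pass the test. Cdkn1a encodes p21, the inhibitor of cyclin-dependent kinases through which p53 arrests the cycle, and its main probe was spotted 10 times on each array. Its signal was 2.42, 2.45, 2.83 and 2.59 on the control arrays and 2.33, 2.52, 2.47 and 2.61 on the irisin arrays. The irisin values lay within or next to the control range, and the difference was -0.088 (SE 0.11, 95% interval -0.33 to 0.15, adjusted p = 0.635). The probe for the other Cdkn1a transcript, NM_001111099, was dim, with a background-subtracted signal of 11.4 to 22.6 on the 8 arrays, and gave -0.16 (SE 0.17, adjusted p = 0.568). Ccng1, cyclin G1, brings a phosphatase to MDM2. It was at 3.81, 3.81, 3.87 and 3.50 on the control arrays and at 3.89, 3.41, 4.14 and 3.87 on the irisin arrays. Irisin array 2 was the lowest of all 8 and irisin array 3 the highest, and the difference was 0.081 (SE 0.15, 95% interval -0.25 to 0.41, adjusted p = 0.761).

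Among the targets tied to cell death, growth signaling and RNA control, the differences were small and of both signs. Phlda3, an inhibitor of AKT at the membrane, was at 5.52, 5.41, 5.43 and 5.35 on the control arrays and at 5.20, 5.39, 5.09 and 5.26 on the irisin arrays. Irisin array 2 alone lay within the control range, and the difference was -0.19 (SE 0.088, 95% interval -0.39 to 0.0012, adjusted p = 0.148, exact permutation p = 0.0571). Without irisin array 2 it was -0.25 with an adjusted p of 0.0429, still under 1.5-fold. Zmat3, a zinc finger protein that binds RNA, was at 1.96, 1.83, 1.96 and 1.87 on the control arrays and at 1.70, 1.82, 1.74 and 1.79 on the irisin arrays. It was the only one of the genes whose groups did not overlap, all irisin arrays being lower (exact permutation p = 0.0286). This occurred for 23% of all tested probes, and the reverse order, all irisin arrays higher, for 4.18%. The Zmat3 difference was -0.14 (SE 0.076, 95% interval -0.31 to 0.024) and its adjusted p in limma was 0.213.

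Trp53inp1, a stress protein that p53 induces and that in turn promotes p53 phosphorylation, had a brighter probe at 2.50, 2.46, 1.97 and 2.16 on the control arrays and at 2.68, 1.86, 3.06 and 2.60 on the irisin arrays. Irisin arrays 1, 3 and 4 were above all control arrays and irisin array 2 was under all of them. The difference was 0.28 (SE 0.22, 95% interval -0.22 to 0.77, adjusted p = 0.439), and without irisin array 2 it was 0.51 (adjusted p = 0.0366), still under 1.5-fold. Its second probe gave 0.028 (SE 0.11, adjusted p = 0.893). Aen, a nuclease that promotes apoptosis, ran from 4.99 to 5.10 in controls and from 4.81 to 5.23 with irisin by its brighter probe, a difference of -0.053 (SE 0.099, adjusted p = 0.764). The second Aen probe gave -0.14 (SE 0.11, adjusted p = 0.403). Sesn1, a sestrin that restrains mTORC1 signaling, stayed between -0.90 and -0.79 in controls and between -0.91 and -0.79 with irisin. Its difference of -0.012 (SE 0.075, 95% interval -0.18 to 0.15, adjusted p = 0.936) was the closest to 0 of the 14 probes.

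**Figure D2:**
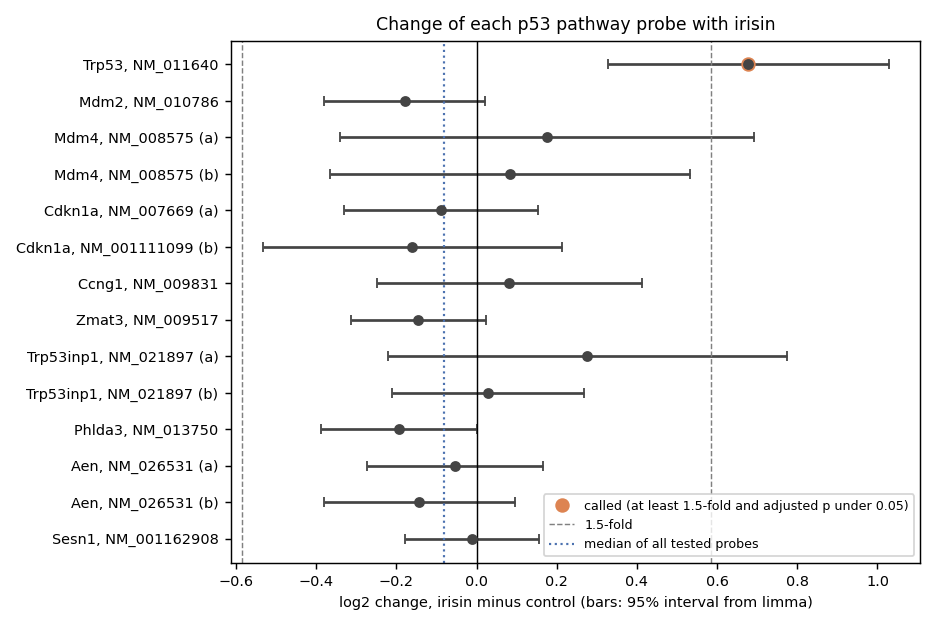
The log2 change with irisin of each of the 14 probes is shown as a point on the horizontal axis with its 95% interval from limma, where a and b mark the brighter and the dimmer probe of a gene. The dashed lines are a 1.5-fold change and the dotted line is the median of all tested probes (-0.080); Trp53 (0.68) lies to the right of the upper line and the other 13 points lie between the dashed lines.

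By the brightest probe, the 95% intervals of 7 of the 9 genes that were not called lay wholly within 1.5-fold in both directions. The exceptions were Mdm4 and Trp53inp1, whose upper bounds of 0.69 and 0.77 lie beyond it. The median change over the 10 genes was -0.033, against -0.064 over all tested genes. All 14 probes were well above background on all 8 arrays, so none was tested only through the group in which it was higher.

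Relative to each other gene on the same array, Trp53 shifted upward by between 0.40 (against Trp53inp1) and 0.87 (against Phlda3) on the log2 scale. Ratios within an array do not depend on a scaling that subtracts a single value from each array. They do depend on the background correction, and on quantile normalization and cyclic loess, for which the separation is not given here. In 5 of the 9 ratios, those to Cdkn1a, Zmat3, Phlda3, Aen and Sesn1, every irisin array lay above every control array, and the same 5 did so with normexp background correction. Trp53 did so against 55.7% of all other tested probes, so the share among the p53 pathway genes is near the background. The ratio to Mdm2 was higher by 0.86 on average, with irisin array 1 within the control range.

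**Figure D3:**
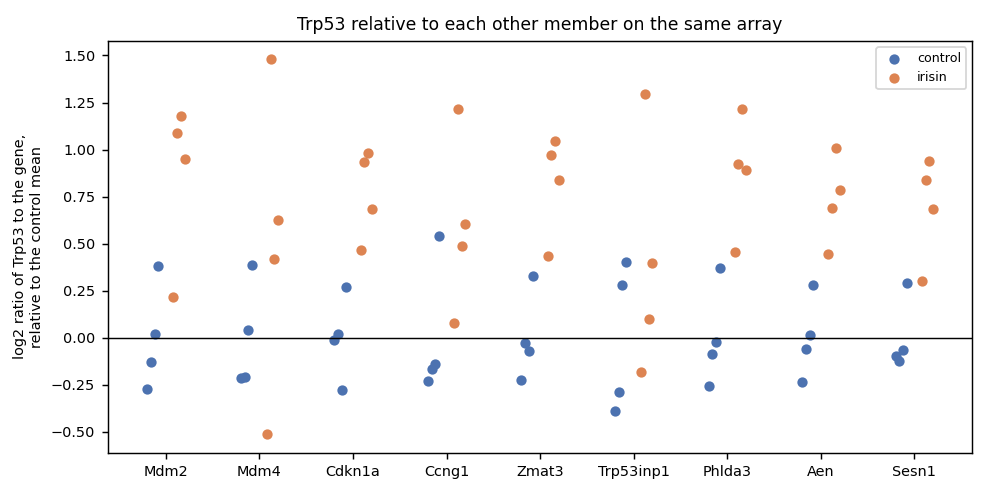
For each of the other 9 genes, the vertical axis gives the log2 ratio of the Trp53 signal to the signal of that gene on the same array, set to 0 at the control mean, with control arrays in blue and irisin arrays in orange. The groups are separate for Cdkn1a, Zmat3, Phlda3, Aen and Sesn1 and overlap for Mdm2, Mdm4, Ccng1 and Trp53inp1.

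The irisin arrays differed from each other more than the control arrays did. The SD was larger among the irisin arrays for 12 of the 14 probes (85.7%), against 64.1% of all tested probes, with a median SD of 0.093 on the control and 0.20 on the irisin arrays, against 0.12 and 0.16 over all tested probes. Irisin array 2 was the lowest or the highest of the 4 irisin arrays for 12 of the 14 probes (85.7%), being lowest for 5 and highest for 7. It held such a place for 70.8% of all tested probes, where the 4 arrays average to 50%. Control array 1 was at an end of its group for 12 of the 14 probes as well, against 50.2% of all tested probes. Probes of a gene and genes on one array share that array, so these counts are descriptions. The Trp53 change without irisin array 2 was 0.61 (adjusted p = 0.0221).

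The scaling between arrays set the level of all changes, since the irisin arrays were brighter. The rise of Trp53 was 0.68 with quantile normalization, 0.68 with cyclic loess, 0.66 with normexp background correction, 1.25 with scaling to spike-in probes and 1.42 with no scaling, and it was called in each. The median of all tested probes was -0.080 with the 75th percentile, 0.0095 with quantile normalization, 0.024 with cyclic loess, 0.49 with the spike-in probes and 0.66 with no scaling. Relative to that median, Trp53 was 0.76 higher with the 75th percentile, the spike-in probes and no scaling. These settings subtract a single value per array or none, so that this value is the same by construction. Trp53 was 0.67 higher than the median with quantile normalization and 0.65 with cyclic loess. The direction of the smaller differences followed the scaling, and Mdm2, Cdkn1a, Zmat3, Phlda3, Aen and Sesn1, all negative by their brightest probe with the 75th percentile, were positive with the spike-in probes and with no scaling. With quantile normalization Phlda3 (0.013) and Aen (0.13) were positive as well, and with cyclic loess Aen (0.10).

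**Figure D4:**
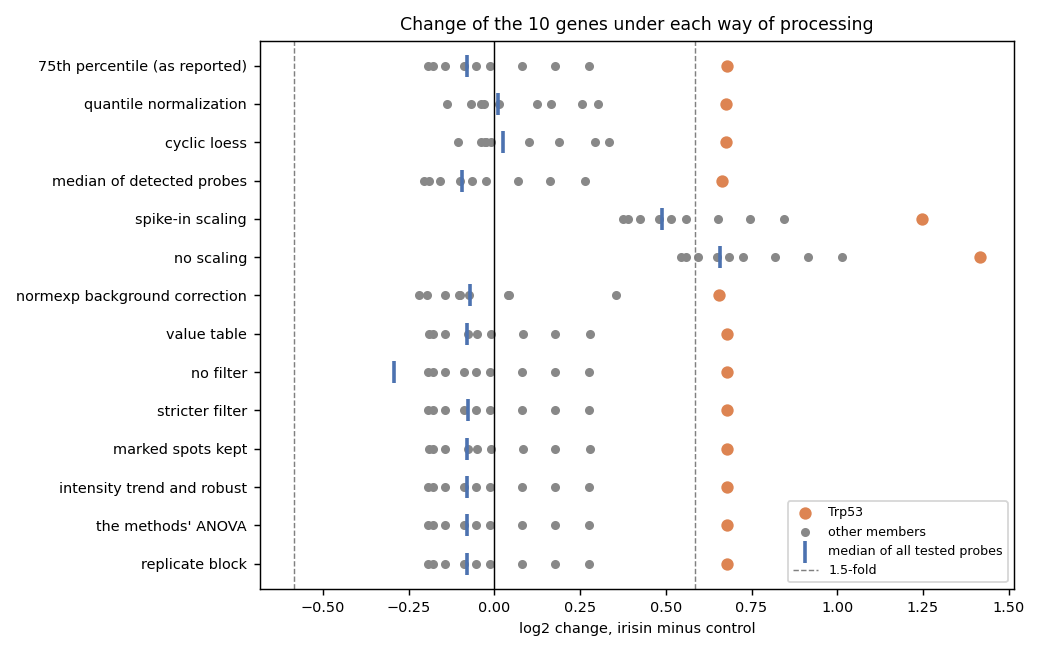
Each row is 1 way of processing, and the horizontal axis is the log2 change with irisin by the brightest probe, with Trp53 in orange, the other 9 genes in grey and the median of all tested probes as a blue bar. Trp53 lies to the right of the dashed 1.5-fold line in every row, and the spike-in and unscaled rows shift all points together with the median.

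The genes that control p53 were taken as a list of 30, of which 29 were on the array and tested. None was called higher and 1 was called lower, against 0.531% and 10.2% of all genes. Their median change was -0.030, against -0.064 over all genes. The gene called lower was Chek1, the checkpoint kinase that ATR activates and that phosphorylates p53. Its signal was -5.03, -5.66, -5.28 and -5.26 on the control and -6.39, -5.98, -6.23 and -5.80 on the irisin arrays, so that all irisin arrays were lower. It fell by 0.79 on the log2 scale (SE 0.16, adjusted p = 0.00360). The probe was dim, with a median background-subtracted signal of 12.2 on the control and 10.7 on the irisin arrays, and it was not called with quantile normalization (-0.36), cyclic loess (-0.35), the spike-in probes (-0.23), no scaling (-0.057) or normexp background correction (-0.21). By adjusted p alone, 6 of the 29 were lower and 0 higher, against 17.9% and 2.65% of all tested genes, so that the share of lower genes was near the background. Named after their values were seen, these were Chek1, Trp73 (-0.58), Trp53bp2 (-0.52), which encodes a protein that binds p53 and steers it to death genes, Trp63 (-0.50), the ribosomal protein gene Rpl11 (-0.48), whose product binds MDM2, and the acetyltransferase gene Crebbp (-0.36). Cdkn2a, whose ARF product inhibits MDM2 and which was also named after its value was seen, was at 2.46 ± 0.096 and 2.48 ± 0.27 (SD, n = 4 each), a difference of 0.028 (adjusted p = 0.911).

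Other p53 target genes were taken as a list of 54 in 5 roles, of which 52 were on the array and 50 were tested. Again none was called higher and 1 was called lower, against 0.531% and 10.2% of all genes. The median change of the 50 was -0.026. The gene called lower was Sfn, which encodes the 14-3-3σ protein that holds cyclin B and CDK1 in the cytoplasm. It was at -4.95, -4.90, -4.59 and -4.51 on the control arrays and at -5.99, -5.67, -5.72 and -5.60 on the irisin arrays, with no overlap. It fell by 1.01 on the log2 scale (SE 0.13, adjusted p = 0.000303). Its probe was dim as well, at a median background-subtracted signal of 19.0 and 14.3. Sfn was not called with normexp (-0.23), the spike-in probes (-0.44) or no scaling (-0.27). With normexp the offset of 50 shrinks its change, and the limma adjusted p there was 0.0068. By adjusted p alone, 3 of the 50 were higher and 3 lower, against 2.65% and 17.9% of all genes, which is 20.6% in either direction.

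By role, the 6 DNA repair genes had the highest median, 0.11, and none was called. In this group Ercc5, the endonuclease XPG of nucleotide excision repair, was higher by 0.31 (adjusted p = 0.0444) but under 1.5-fold. The 13 cell death genes had a median of -0.034 with no call. Apaf1, the scaffold of the apoptosome, was at -0.33, -0.21, -0.14 and -0.012 on the control and at 0.27, 0.19, 0.53 and 0.26 on the irisin arrays, a difference of 0.48 (SE 0.10, adjusted p = 0.00519) that stayed under 1.5-fold. The pore-forming Bax had a difference of -0.30 (adjusted p = 0.0965), and Bbc3, which encodes PUMA, one of -0.047 (adjusted p = 0.802). The 7 cell-cycle arrest genes tested had a median of -0.12, with Sfn the 1 call, and with Gtse1, a protein that binds p53 in G2, at -0.29 (adjusted p = 0.0370). Gadd45a was at 0.21 (adjusted p = 0.0968) and Btg2, an antiproliferative factor, at 0.25 (adjusted p = 0.0821), and for both all irisin arrays were above all control arrays. The 13 genes of metabolism and stress had a median of -0.079 with no call, with Dram1, a lysosomal inducer of autophagy, at 0.42 (adjusted p = 0.0212) and Sesn2, the sister gene of Sesn1, at -0.39 (adjusted p = 0.0301). The Dram1 probe was dim, with a median background-subtracted signal of 10.2 on the control and 24.4 on the irisin arrays. Its difference depended on the processing, being called with quantile normalization (0.79), cyclic loess (0.82), the spike-in probes (0.99) and no scaling (1.16), while it was 0.0087 with normexp background correction. The remaining 11 had a median of -0.0052 with no call. The genes named here other than Sfn were chosen after their values were seen.

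The genes that p53 lowers through p21 and the DREAM complex, a repressor of cell-cycle genes, were taken as a list of 20, and all were tested. Their median was -0.088, against -0.064 over all genes. Of the 20, 1 was called lower and none higher, against 10.2% and 0.531% of all genes. Aurkb, the kinase of the chromosomal passenger complex, was at -3.01, -2.72, -2.58 and -2.62 on the control and at -3.74, -3.50, -3.59 and -3.85 on the irisin arrays, with no overlap. It fell by 0.94 on the log2 scale (SE 0.12, adjusted p = 0.000295), and it was not called with normexp (-0.51), the spike-in probes (-0.37) or no scaling (-0.20). By adjusted p alone, Birc5, which encodes survivin, was also lower (-0.29, adjusted p = 0.0431) by its brightest probe. Other Birc5 probes gave 0.016 (limma adjusted p = 0.927) and 0.090 (limma adjusted p = 0.508). Nek2, a centrosome kinase, was higher (0.30, adjusted p = 0.0434). By the brightest probes, 2 of the 20 were thus lower and 1 was higher, against 17.9% and 2.65% of all tested genes. The tested probes of Cdk1, the mitotic kinase, were all negative but differed in size. The brightest gave -0.18 (adjusted p = 0.209), and the others gave -0.29 (limma adjusted p = 0.0325) and -0.78 (adjusted p = 0.000288). Birc5, Nek2 and Cdk1 were named after their values were seen.

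**Figure D5:**
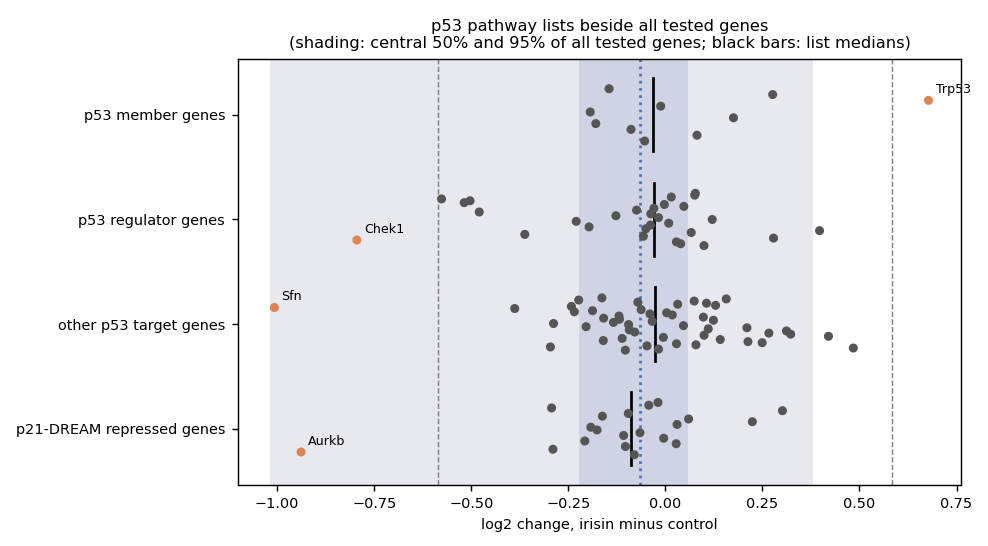
Each dot is 1 gene by its brightest probe, in 1 of 4 rows for the 10 p53 pathway genes, 29 regulators, 50 other targets and 20 DREAM genes, with the log2 change with irisin on the horizontal axis. Called genes are orange and named, black bars are list medians, the dotted line is the median of all tested genes (-0.064), the shading covers the central 50% and 95% of all tested genes and the dashed lines are 1.5-fold; most dots lie between -0.30 and 0.30.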

How the data were processed

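The authors hybridized Cy3-labeled cRNA of 4 control and 4 irisin-treated AML12 samples to one-color Agilent arrays. Scans were read with Agilent Feature Extraction, version 12.0.3.1 per the file headers. The deposited values are signal intensity on a linear scale, with background subtracted and no normalization between arrays. Samples were grouped by their labels. Spots marked as outliers were left out (at most 0.463% per array), spots of a probe were averaged, and each array's 75th percentile was subtracted on the log2 scale. No spot was saturated. Probes were named by accession through the RefSeq table of GRCm38.p6 (28663 of 39429 probes). The files place probes on mm9, so no probe positions are given. The number of arrays limits the precision.

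Differences were tested with limma 3.58.1 (lmFit, eBayes) in R 4.3.3 on the 24092 probes that every array of the control or of the irisin group showed well above background, with Benjamini-Hochberg adjustment over all of them, and single probes by exact two-sided permutation of the 70 ways to assign arrays to groups. In lists, the brightest probe stood for its gene. Arrays of 24022 probes were simulated with the spread of each probe in this comparison. Of 100 probes changed by 0.7 on the log2 scale, 57% were recovered, and of 100 changed by 1.5, 95%. Calls were made for 2 unchanged probes. The simulation had far fewer changed probes than the 2987 called in the data, and no noise shared within an array or slide. Its rates are therefore not the power or error rate of this comparison. The members and lists were chosen with earlier results of these data known, and the lists were written from general knowledge. The named genes are all members and every called gene of the lists, and others are named as chosen after their values were seen. Alternatives were quantile normalization, cyclic loess, scaling to the median of detected probes or to 8 spike-in probes, no scaling, normexp (offset 50, on the median spot signal), the deposited value table, other filters, an intensity trend with robust eBayes, marked spots kept, the methods' t-test (their one-way ANOVA, which for 2 groups is a plain t-test), the adjusted p alone, a mean over all tested probes in place of the brightest, a replicate block and omission of each array in turn. The normexp offset shrinks the changes of dim probes, so that their calls could be lost through it alone. Python 3.11.15 with matplotlib 3.10.9 drew the plots.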

Additional observations from a re-analysis of the deposited data

Results flagged for a closer look

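In the control group Ccng1 had 1 array far from the others. Control array 4 was at 3.50, in log2 relative to the 75th percentile, and the nearest of the other control arrays was at 3.81 and the farthest at 3.87. It was the single such case in 34 groups of 4 arrays examined, and about 1 in 20 groups shows 1 by chance. The Ccng1 difference did not pass the test with or without that array.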

How the results depend on the processing

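Trp53 kept its direction in all 21 alternatives and its call in 20, the exception being the methods' t-test. Of the 10 p53 pathway genes, 4 were called higher with spike-in scaling, 8 with no scaling and 0 with that t-test. Of all 24092 tested probes, 7510, 14920 and 108 were called higher in the same order. The counts of the lists below stand beside the same background. Cdkn1a (0.65), Zmat3 (0.59), both Aen probes (0.68 and 0.60) and Sesn1 (0.73) turned to called increases with no scaling. Regulators called higher were 8 with spike-in scaling and 21 with none. Regulators called lower were 0 with quantile normalization, loess, spike-in scaling, no scaling and normexp, 2 with the median of detected probes, 6 with the adjusted p alone and 1 to 2 with an array left out, Trp73 being the second. Other targets called higher were 1 with quantile normalization and with loess (Dram1), 21 with spike-in scaling, 38 with none and 3 with the adjusted p alone. Other targets called lower were 0 with spike-in scaling, no scaling and normexp, 3 with no filter and 3 with the adjusted p alone. DREAM genes called higher were 5, 13 and 1 with spike-in scaling, no scaling and the adjusted p alone. DREAM genes called lower were 0, 0, 0 and 2 with spike-in scaling, no scaling, normexp and the adjusted p alone.

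Of all probes, 172 were called higher, and 670 with quantile normalization, 699 with loess, 7510 with spike-in scaling, 14920 with no scaling, 55 with normexp, 108 with that t-test, 713 with the adjusted p alone and 102 to 335 with an array left out (335 without irisin array 2 and 102 without irisin array 3). Called lower were 2815, and 1021, 926, 372, 162 and 103 with the first 5 of these, 12750 with no filter and 5196 with the adjusted p alone. Over the single probes and alternatives, 330 of 357 combinations kept the side of the threshold, 10 gained a call, 12 lost one and 5 reversed. Among the 330, 29 were not called in either setting but differed in sign. The cause was not tested. With the replicate number as a block, Trp53 was still the 1 gene called of the 10 (adjusted p = 0.00600), and 173 probes were called higher and 2831 lower. Arrays of the same number deviated together with correlations of 0.11, -0.35, -0.13 and 0.17, so the numbers were not taken as pairs. Signal over background limits the dim probes named above, among them those of Chek1, Sfn and Dram1, and to a lesser degree the Aurkb probe.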
